A study of Mus musculus with 5 samples.

Results

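Ifit1, Ifit3, Ifit3b, Isg15, Oasl2, Mx1, Rsad2, Usp18 and Irf7 are antiviral interferon-stimulated genes. These 9 genes were chosen by name, with earlier results of these data known. They are 9 of the 30907 mouse features counted by droplet-based single-cell RNA sequencing of mouse trachea. Adult wild type mice of strain 129 X1/S1 received 2% polidocanol, a detergent that strips the airway lining, into the trachea, and 5 hours later iBCs, basal cells derived from murine embryonic stem cells (ESC). Donor-derived cells (live, GFP+) were sorted on day 56 from one recipient and on day 40 from another, and endogenous cells (live, GFP-) were sorted from the same 2 recipients. The control was 1 trachea of the same strain without injury or transplantation, sorted for live cells alone. All animals are adults of one genetic background, and the sources used here give no age in weeks. The labels describe 1 recipient per day, so the day and the recipient cannot be told apart, and the polidocanol injury and the transplanted cells are likewise both present in every recipient and absent from the control.

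Interferons are secreted proteins that bind receptors on nearby cells and, through kinases of the JAK family, switch on genes that hold the interferon-stimulated response element in their promoters. The airway epithelium is a main barrier against respiratory viruses, and many of its cell types raise these genes in response to type I or type III interferon. Interferon gamma, made mainly by T and NK cells, acts through a receptor of its own and raises an overlapping set. Of the 9 genes, Ifit1, Ifit3 and Ifit3b encode proteins with tetratricopeptide repeats that act on viral RNA, Oasl2 a relative of the oligoadenylate synthetases, Mx1 a dynamin-like GTPase that blocks influenza virus, and Rsad2 viperin, which makes an antiviral nucleotide. Isg15 encodes a ubiquitin-like modifier, Usp18 removes that modifier and dampens signalling from the type I receptor, and Irf7 is a factor that amplifies type I interferon production.

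Ifit3 (chr19:34583531-34588731, plus strand), Ifit3b (chr19:34607970-34613401, plus strand) and Ifit1 (chr19:34640871-34650009, plus strand) are neighbours on chromosome 19 of GRCm38. The other genes lie apart, Isg15 at chr4:156199424-156200818 (minus strand), Oasl2 at chr5:114896936-114912234 (plus strand), Usp18 at chr6:121245906-121270917 (plus strand), Irf7 at chr7:141262706-141266481 (minus strand), Rsad2 at chr12:26442746-26456452 (minus strand) and Mx1 at chr16:97447035-97462907 (minus strand). All 9 are annotated as protein coding. The 250 bases upstream of the start were searched on both strands for GAAA followed after any 2 bases by a second GAAA (TTTC, 2 bases and TTTC when read from the other strand), the core of the interferon-stimulated response element, with overlapping matches allowed. RefSeq promoters on GRCm38.p6 were matched for 7 of the 9 genes, and the motif stood in 5 of these 7, against 821 of 27025 promoters (3.04%). The 5 stretches that hold it are shown, each read on the strand of its gene with the matches in capitals, because they hold the motif that these 5 genes share.
Ifit1: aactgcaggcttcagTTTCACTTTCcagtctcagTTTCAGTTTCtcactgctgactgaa
Ifit3: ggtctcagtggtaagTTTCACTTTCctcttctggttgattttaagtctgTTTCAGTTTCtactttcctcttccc
Ifit3b: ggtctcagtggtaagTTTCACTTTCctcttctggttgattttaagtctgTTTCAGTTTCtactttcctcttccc
Isg15: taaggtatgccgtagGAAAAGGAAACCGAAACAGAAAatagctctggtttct
Rsad2: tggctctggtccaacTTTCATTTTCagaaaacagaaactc
The Ifit1 stretch is chr19:34640770-34640828, that of Ifit3 chr19:34583358-34583431 and that of Ifit3b chr19:34607754-34607827. The Isg15 stretch is chr4:156200860-156200911 and that of Rsad2 chr12:26456548-26456587. Ifit1, Ifit3 and Ifit3b hold 2 matches each on the strand opposite the gene, Rsad2 holds 1 there, and Isg15 holds 3 that overlap each other on its own strand. The windows of Ifit3 and Ifit3b are identical letter for letter. No match stood in the windows of Oasl2 and Irf7, and Mx1 and Usp18 were not matched.

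The likeness of Ifit3 and Ifit3b extends to their transcripts. Over 1697 aligned bases they are 98% identical, and 575 stretches of 91 bases are found in both, which is 34.7% of those of Ifit3 and 30.1% of those of Ifit3b. How reads were shared out between the pair is therefore uncertain, and their values below are best read together. Of Ifit1, 3.98% of such stretches are also in Ifit1bl2, and of Mx1, 1.52% are in Mx2, which is not analysed here. Usp18 overlaps Gm44148 on the opposite strand by 15715 bases (89 UMIs in all kept cells), and Irf7 overlaps Phrf1 by 45 bases (2618 UMIs). The sources used here do not say whether the counting used strand.

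The deposited counts are UMIs, unique molecular identifiers that each stand for 1 captured RNA molecule. The 5 libraries held 808 to 1743 barcodes and 16580940 to 25569394 UMIs. The control library held 7644826 mouse UMIs. In it 192 barcodes with over 10% human-mapped UMIs were left out, and its kept cells held 7396581 UMIs. Of all barcodes 6554 cells were kept, 611 to 1731 per library, with median depths of 9999 to 12783 UMIs, and any pair of libraries shared at most 2 barcodes. The cells fell into 24 clusters. Clusters with at least 1000 CPM (each gene's UMIs scaled to an equal library total) of Krt5, the basal keratin, were joined as Krt5-high cells, and clusters with at least 100000 CPM of Scgb1a1, the club cell secretoglobin, as Scgb1a1-high cells. From the Krt5-high cells 2 clusters above the limit were kept out, cluster 15, named hillock-like from its markers and with the most Krt5 of all clusters (2680 CPM), and cluster 18 (1301 CPM), in which 97.8% of cells held a UMI of Mki67, a gene of dividing cells. The Scgb1a1 rule made no such exception for hillock-like clusters. Of the other clusters those nearest to the limits had Krt5 at 1090 CPM inside and 647 CPM outside, and Scgb1a1 at 147130 CPM inside and 97141 CPM outside, in a ciliated-like cluster. Clusters that scored highest for markers of motile cilia are called ciliated-like. Donor-derived Krt5-high cells lay mostly in clusters 0, 5, 7 and 13 and the endogenous and control ones in cluster 2. Donor-derived Scgb1a1-high cells lay mostly in clusters 3 and 4, and the others in cluster 1. Cluster 3 was named hillock-like on a score of 0.842 (2.95 in cluster 15), with secretory markers next and 1 hillock marker among its 10 leading genes. At clustering resolution 0.5 the largest donor-derived Scgb1a1-high cluster was unnamed and scored highest for secretory markers. The share of cluster 3 in the donor-derived Scgb1a1-high group was 84 of 469 cells for day 56 and 488 of 653 for day 40. Of the donor-derived ciliated-like cells cluster 14 held 112 of 117 on day 56 and 22 of 41 on day 40, and the remaining ones shared clusters 6 and 10 with the endogenous and control cells. On day 56 and day 40 in donor-derived, day 56 and day 40 in endogenous and then in control cells, there were 1101, 718, 234, 353 and 66 Krt5-high cells. The Scgb1a1-high cells numbered 469, 653, 204, 253 and 242 in the same order, and the ciliated-like cells 117, 41, 194, 231 and 154. Of these 5030 cells, 14 held a UMI of Ptprc, the pan-leukocyte gene. UMIs were summed per library and cell group, and levels are CPM of these sums after TMM scaling, a correction for differing RNA make-up, unless called unscaled. In such sums fewer expressing cells and less RNA per cell cannot be told apart.

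The first comparison set donor-derived against endogenous cells of the same cell group, over 2 libraries each. In ciliated-like cells 4 of the 9 genes rose in donor-derived cells, Ifit3, Ifit3b, Isg15 and Usp18, and none fell. In Scgb1a1-high cells Mx1 rose, and in Krt5-high cells Isg15 rose and Irf7 fell. The replicates are the 2 recipients, so p-values measure the spread between 2 libraries per group, which also differ in day. On each day both sorts were made from 1 animal, and a fit blocked by recipient called 6 of 9 genes higher in ciliated-like cells, 4 of 9 higher in Scgb1a1-high cells, and 5 of 8 higher and 1 lower in Krt5-high cells. Over all tested genes that fit called 2.65% higher and 2.63% lower in ciliated-like, 8.30% and 9.18% in Scgb1a1-high and 8.35% and 9.16% in Krt5-high cells.

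**Figure D1:**
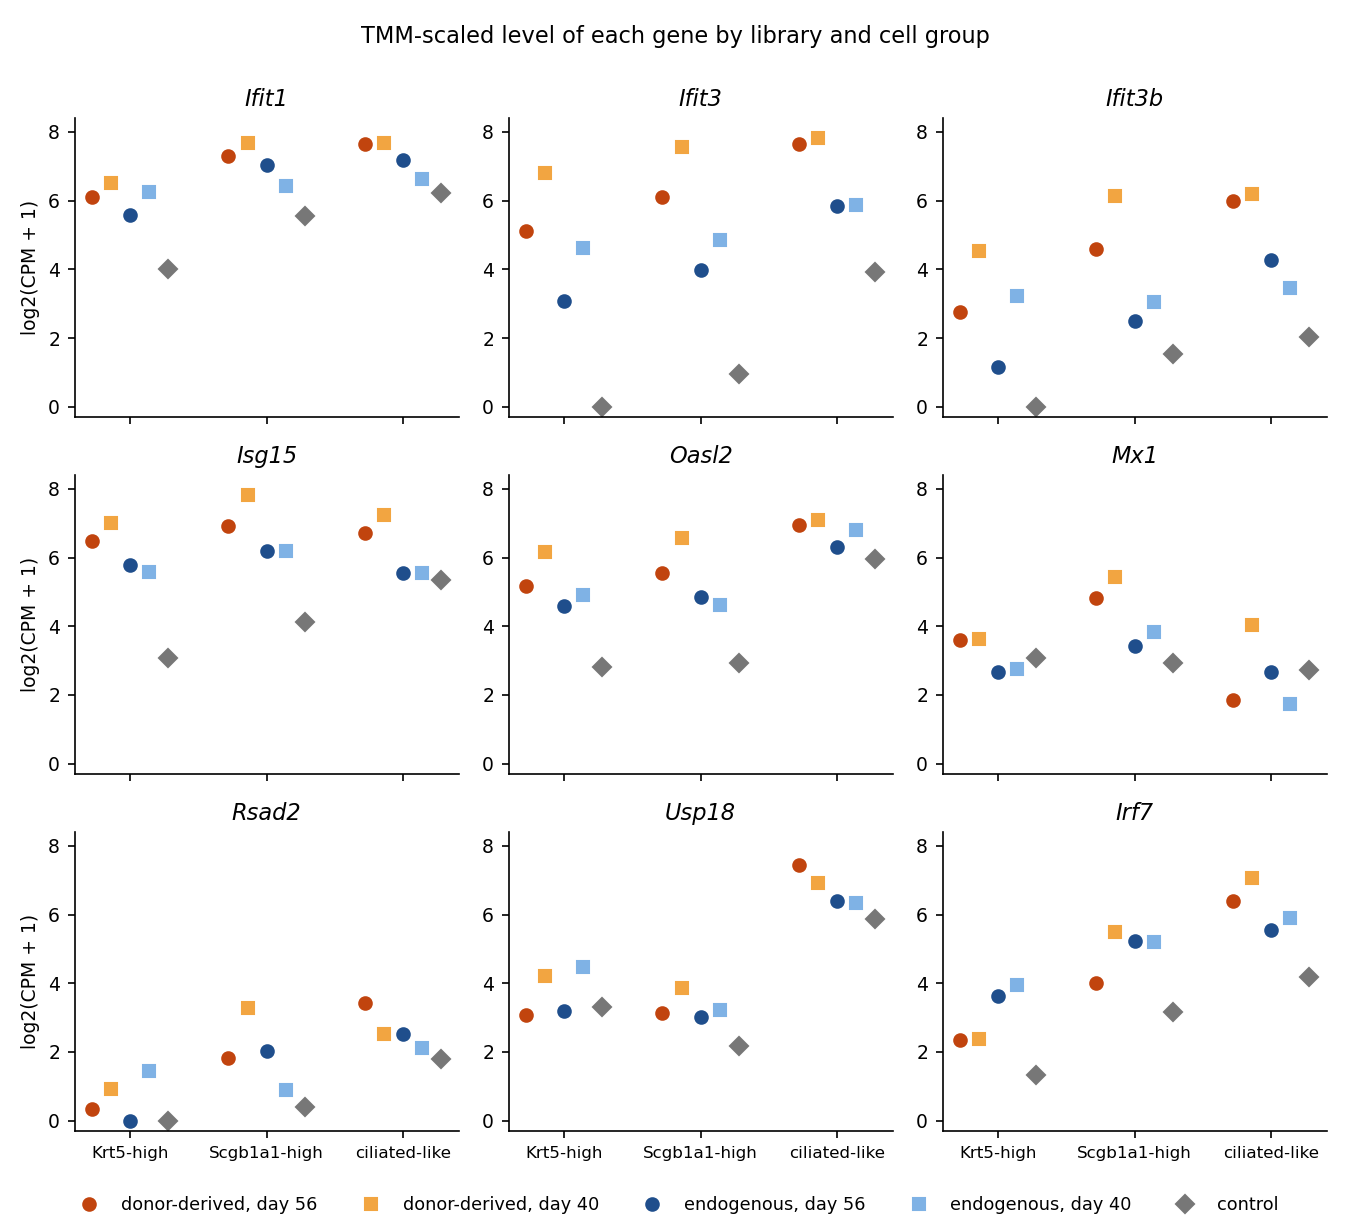
Level of each of the 9 genes on a log2(CPM + 1) axis, by cell group, with 1 point per library after TMM scaling. Both donor-derived points lie above both endogenous points for Ifit3 in all 3 cell groups, and the control is the lowest point for Ifit1, Ifit3, Ifit3b, Isg15, Oasl2 and Irf7 in each cell group.

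Ciliated-like cells, the multiciliated cells that move mucus, held high levels of most of the 9 genes. Ifit3 was at 198.9 CPM on day 56 and 226 CPM on day 40 in donor-derived cells, against 56.1 and 57.1 CPM in endogenous cells and 14.2 CPM in the control. Ifit3b followed at 62.0 and 72.7 CPM in donor-derived cells, against 18.4 and 10.1 CPM in endogenous cells and 3.09 CPM in the control. As pooled sums the libraries of each kind lay close together for Ifit3, less so the endogenous ones for Ifit3b (58 and 30 UMIs). For both genes the donor-derived libraries did not overlap the endogenous ones. Cluster 14 held 112 of the 117 donor-derived cells on day 56 and 22 of the 41 on day 40. Within that cluster Ifit3 was further apart between the days, at 211.8 and 381.8 unscaled CPM. edgeR's quasi-likelihood test with Benjamini-Hochberg adjustment gave a log2 fold change of 1.95 ± 0.17 for Ifit3 (SE derived from the test, n = 2 libraries per group, adjusted p = 0.00108) and of 2.26 ± 0.28 for Ifit3b (adjusted p = 0.00528). Isg15 was at 103.9 and 150.2 CPM in donor-derived cells, against 46.0 and 45.7 CPM in endogenous cells and 39.5 CPM in the control (1.49 ± 0.21, adjusted p = 0.00754). Endogenous cells of both days and control cells stood close together for Isg15, and the donor-derived libraries lay above them. Usp18, the deconjugating protease, was at 171.7 and 120.8 CPM in donor-derived cells, against 83.7 and 80.3 CPM in endogenous cells and 57.4 CPM in the control (0.89 ± 0.20, edgeR adjusted p = 0.0399). It was the only one of the 4 that was higher on day 56 than on day 40 in donor-derived cells.

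Irf7 was at 83.3 and 131.4 CPM in donor-derived ciliated-like cells, against 46.0 and 58.4 CPM in endogenous cells and 17.3 CPM in the control. The groups did not overlap, but Irf7 missed the threshold (1.06 ± 0.24, edgeR adjusted p = 0.0520, and 0.00383 in the blocked fit). Ifit1, at 197.6 and 205.3 CPM in donor-derived cells, against 145.2 and 98.4 CPM in endogenous cells and 74.1 CPM in the control, likewise passed in the blocked fit (edgeR adjusted p = 0.0894 unblocked and 0.0415 blocked). Oasl2 was at 121.4 and 136.1 CPM in donor-derived cells, against 78.3 and 110.1 CPM in endogenous cells, with an edgeR adjusted p of 0.222. Mx1, at 2.58 and 15.3 CPM in donor-derived cells and 5.39 and 2.35 CPM in endogenous cells, and Rsad2, at 9.68 and 4.69 CPM in donor-derived cells and 4.76 and 3.36 CPM in endogenous cells, rested on 4 to 17 UMIs per library and overlapped between the groups. Over all 10513 genes tested in ciliated-like cells, 1.92% were called higher and 1.93% lower, and of the 9 genes 4 were higher and 0 lower. Both donor-derived libraries lay above both endogenous ones for 7 of the 9 genes, and for 23.0% of all tested genes. With the endogenous library of day 40 left out Ifit3 alone of the 4 passed (edgeR adjusted p = 0.0463), and with that of day 56 left out Ifit3 and Ifit3b did (0.0349 and 0.0116). In the DESeq2 test Usp18 had an adjusted p of 0.119.

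**Figure D2:**
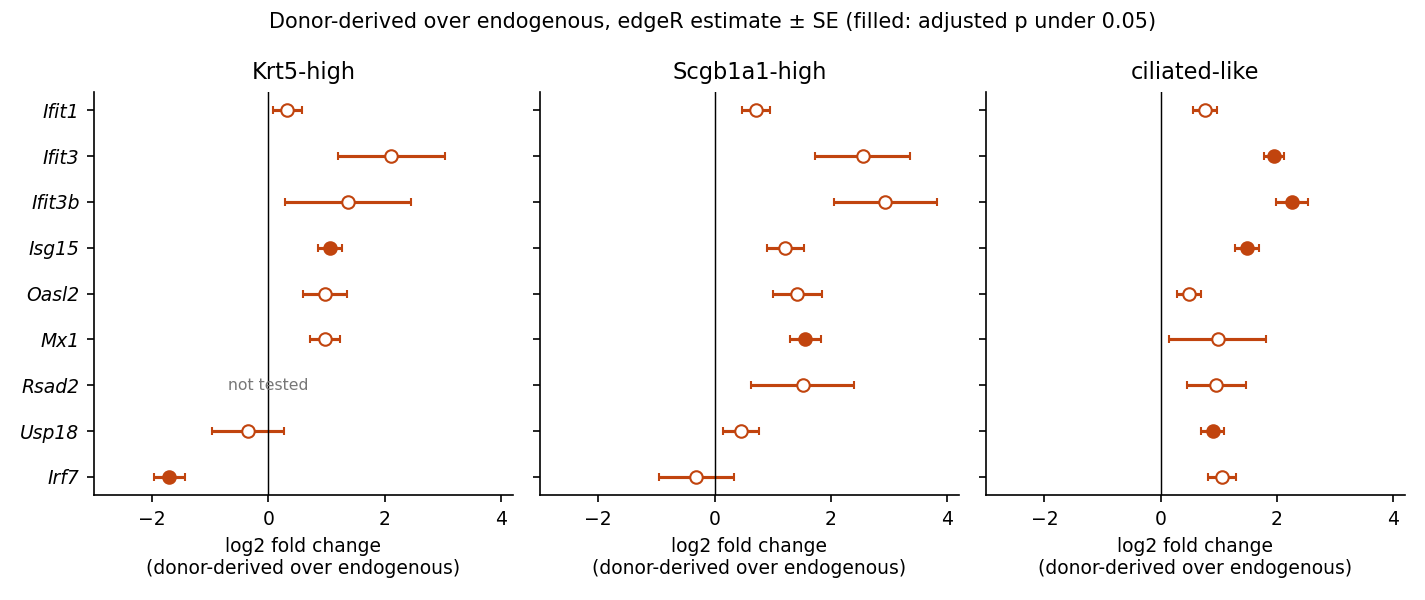
Log2 fold change of donor-derived over endogenous cells for each gene and cell group from edgeR's quasi-likelihood test (bars are ± 1 SE, n = 2 libraries per group, filled points have an adjusted p under 0.05). The called points are Isg15 and Irf7 in Krt5-high cells, Mx1 in Scgb1a1-high cells, and Ifit3, Ifit3b, Isg15 and Usp18 in ciliated-like cells, and Irf7 in Krt5-high cells is the only called point left of 0.

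In Scgb1a1-high cells Mx1 was at 27.1 CPM on day 56 and 42.5 CPM on day 40 in donor-derived cells, against 9.71 and 13.4 CPM in endogenous cells and 6.63 CPM in the control. It rose by 1.56 ± 0.27 on the log2 scale (edgeR adjusted p = 0.00827). The adjusted p was 0.0537 when the endogenous library of day 40 was left out and 0.0933 when that of day 56 was. Ifit3 and Ifit3b had wider spreads between the donor-derived libraries. Ifit3 was at 67.5 and 186.9 CPM in donor-derived cells, against 14.8 and 27.8 CPM in endogenous cells and 0.948 CPM (3 UMIs) in the control. Ifit3b was at 23.0 and 69.7 CPM in donor-derived cells, against 4.64 and 7.21 CPM in endogenous cells and 1.90 CPM in the control. Both donor-derived libraries lay above both endogenous ones for this pair, with the day 40 library highest by far. Their log2 fold changes were the largest of the 9 genes, 2.55 ± 0.81 and 2.94 ± 0.88, but edgeR's adjusted p was 0.212 for Ifit3 and 0.184 for Ifit3b, against 7.18e-05 and 0.000239 in the blocked fit.

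Isg15 in Scgb1a1-high cells was at 120.1 and 223.2 CPM in donor-derived cells, against 72.6 and 71.7 CPM in endogenous cells and 16.4 CPM in the control (edgeR adjusted p = 0.0831 unblocked and 0.0213 blocked). Ifit1 was at 155.8 and 202.4 CPM in donor-derived cells, against 130.0 and 84.2 CPM in endogenous cells and 45.8 CPM in the control (adjusted p = 0.108). Oasl2 was at 46.2 and 94.2 CPM in donor-derived cells, against 28.0 and 23.3 CPM in endogenous cells and 6.63 CPM in the control (adjusted p = 0.128). None of these 3 overlapped between donor-derived and endogenous libraries. Irf7 did overlap, at 15.1 and 43.9 CPM in donor-derived cells, against 36.7 and 35.8 CPM in endogenous cells and 7.90 CPM in the control. Rsad2 was at 2.57 and 8.63 CPM in donor-derived cells and 3.09 and 0.848 CPM in endogenous cells, and Usp18 at 7.70 and 13.5 CPM in donor-derived cells and 7.07 and 8.27 CPM in endogenous cells, and both overlapped too. In all, 6 of 9 genes had both donor-derived libraries above both endogenous ones, as had 31.1% of the 10997 genes tested, and 1 of 9 was called higher, beside 7.03% called higher and 8.57% called lower over all genes. DESeq2 called 5 of the 9 genes higher, and 5.06% of the 12556 genes to which it gave an adjusted p.

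In Krt5-high cells, all of whose clusters scored highest for markers of basal cells, the stem cells of the airway lining, Isg15 was at 87.9 CPM on day 56 and 126.5 CPM on day 40 in donor-derived cells, against 53.6 and 46.5 CPM in endogenous cells and 7.5 CPM (5 UMIs) in the control. It rose by 1.06 ± 0.21 (edgeR adjusted p = 0.0209). The adjusted p was 0.211 when the endogenous library of day 40 was left out, 0.113 when that of day 56 was, 0.182 at clustering resolution 0.5 and 0.168 when the cells were clustered without interferon genes. Irf7 went the other way, at 4.06 and 4.17 CPM in donor-derived cells, against 11.4 and 14.5 CPM in endogenous cells and 1.5 CPM (1 UMI) in the control. It fell by 1.71 on the log2 scale (SE 0.27, edgeR adjusted p = 0.00899), and by 1.51 with an adjusted p of 0.127 without the day 40 endogenous library. The donor-derived libraries lay between the control and the endogenous libraries for Irf7, and above both for Isg15. When the group was restricted to clusters named basal-like, an alternative chosen after seeing the data, Irf7 was no longer called (-0.98, adjusted p = 0.106).

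Ifit3 in Krt5-high cells was at 33.7 and 110.9 CPM in donor-derived cells, against 7.36 and 23.7 CPM in endogenous cells and 0 UMIs in the control. Within each recipient the donor-derived cells were the higher, and across recipients the groups kept apart. Ifit3b was at 5.77 and 22.0 CPM in donor-derived cells and 1.23 and 8.27 CPM in endogenous cells, and its groups overlapped. The edgeR adjusted p was 0.317 for Ifit3 and 0.569 for Ifit3b, against 5.99e-05 and 0.00701 in the blocked fit. Oasl2, at 35.0 and 70.5 CPM in donor-derived cells, against 22.9 and 28.8 CPM in endogenous cells, and Mx1, at 11.01 and 11.4 CPM in donor-derived cells, against 5.32 and 5.70 CPM in endogenous cells, also passed in the blocked fit (edgeR adjusted p = 0.212 and 0.0585 unblocked, 0.0117 and 0.0322 blocked). Ifit1, at 68.2 and 90.7 CPM in donor-derived cells and 47.0 and 75.3 CPM in endogenous cells, and Usp18, at 7.40 and 17.4 CPM in donor-derived cells and 8.18 and 21.4 CPM in endogenous cells, were called in neither fit. Rsad2, with 0 to 8 UMIs per library, did not pass the filter on low counts. Of the 8 genes tested 1 was called higher and 1 lower, beside 4.07% of 11479 genes called higher and 6.61% called lower. Both donor-derived libraries lay above both endogenous ones for 4 of the genes, and for 29.9% of all tested genes.

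Whether the donor-derived against endogenous effect differed between Scgb1a1-high and Krt5-high cells was tested as an interaction with the library held fixed. Ifit3b was called, with a log2 effect in Scgb1a1-high cells that was greater by 1.52 ± 0.42 (edgeR adjusted p = 0.0430), beside 6.25% of 12099 genes called in either direction. The other 8 genes were not, with differences of 0.11 for Isg15 to 2.34 for Rsad2 and adjusted p-values of 0.258 to 0.824. Irf7, called lower in Krt5-high cells and not called in Scgb1a1-high cells, had a difference of 1.25 ± 0.51 (edgeR adjusted p = 0.278), so that its effects are not shown to differ between the cell groups. Without the day 40 endogenous library the difference for Ifit3b was -0.11, and its adjusted p was 0.748 in DESeq2 and 0.595 at clustering resolution 2. With clusters named basal-like and secretory-like alone it was 0.47 (adjusted p = 0.658), and the differences for Isg15 and Oasl2 turned to -1.23 and -0.96 (edgeR adjusted p = 1.52e-05 and 0.00658).

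The second comparison set day 56 against day 40. With 1 library per day in each population there is no test, and values are ratios with an exact 95% interval that covers counting error only. In donor-derived cells all 8 measured genes in Krt5-high cells and all 9 in Scgb1a1-high cells stood at a ratio below 1, and 4 and 5 of them were at least 2-fold lower on day 56. In donor-derived ciliated-like cells 6 of 7 had a ratio below 1 and 0 were 2-fold apart. The share of all features with a ratio below 1 was not counted. Their median ratio was 0.985 in Krt5-high, 0.991 in Scgb1a1-high and 1.01 in ciliated-like donor-derived cells. In endogenous cells 3 of 8 genes were at least 2-fold lower on day 56 in Krt5-high cells, 0 of 8 in Scgb1a1-high cells and 0 of 9 in ciliated-like cells. Read against all features with at least 20 UMIs, the share of features at least 2-fold lower on day 56 was 4.75% in donor-derived Krt5-high, 4.73% in Scgb1a1-high and 5.56% in ciliated-like cells. In endogenous cells it was 2.24% in Krt5-high, 2.01% in Scgb1a1-high and 1.30% in ciliated-like cells, where 1.45% were at least 2-fold higher.

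**Figure D3:**
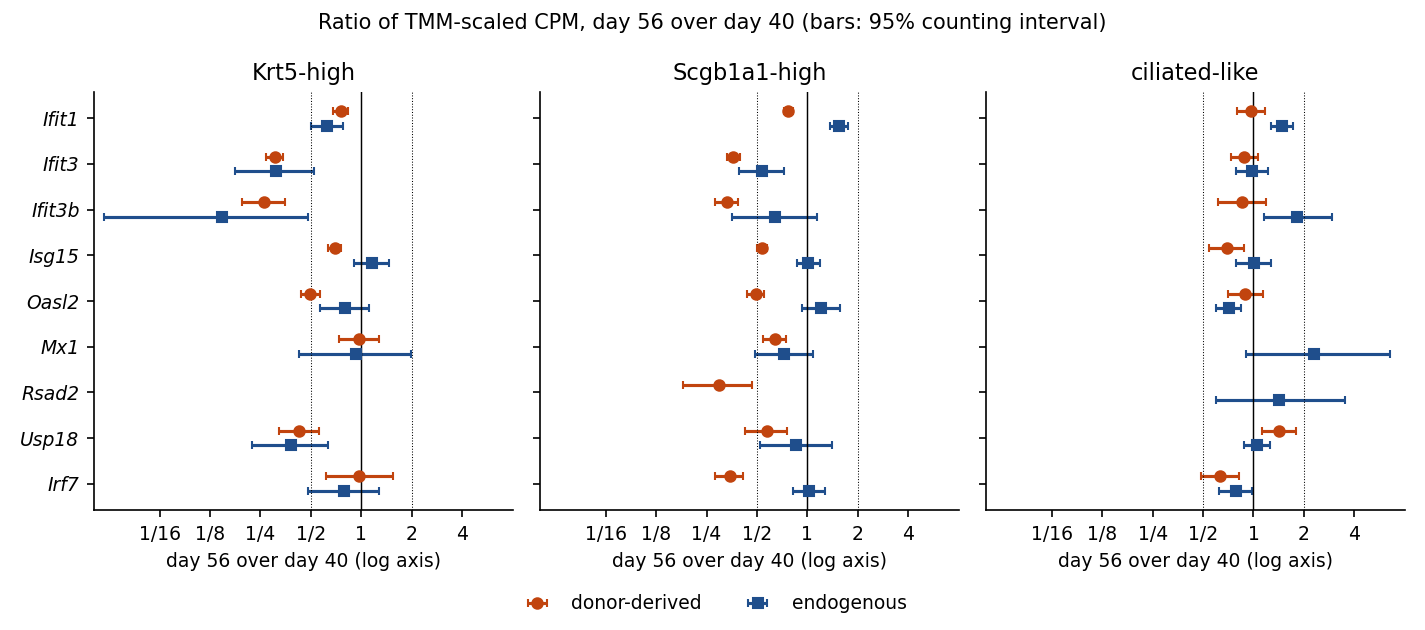
Ratio of day 56 over day 40 for each gene on a log axis, in donor-derived and in endogenous cells of each cell group (1 library per day, bars are the 95% counting interval, dotted lines mark a 2-fold difference, genes under 20 UMIs are left out). In Scgb1a1-high cells the donor-derived points run from 0.297 for Rsad2 to 0.770 for Ifit1, all left of 1, and the endogenous points lie on both sides of 1.

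Ifit3 and Ifit3b were among the genes furthest apart between the days in donor-derived cells. In Scgb1a1-high cells Ifit3 had a day 56 over day 40 ratio of 0.361 (0.330 to 0.395) and Ifit3b of 0.330 (0.282 to 0.384), and in Krt5-high cells the ratios were 0.304 (0.269 to 0.342) and 0.263 (0.195 to 0.350). In endogenous Krt5-high cells Ifit3 had a ratio of 0.311 (0.176 to 0.522), much as in the donor-derived cells of the same 2 animals, and Ifit3b of 0.148 (0.0289 to 0.479, from 3 and 29 UMIs). In endogenous Scgb1a1-high cells Ifit3 stood at 0.533 (0.391 to 0.720). In ciliated-like cells Ifit3 stood at 0.878 (0.731 to 1.06) in donor-derived and at 0.983 (0.792 to 1.22) in endogenous cells, and both intervals hold 1. The donor-derived ratio pools clusters whose shares differed between the days, and within cluster 14 alone Ifit3 was at 211.8 unscaled CPM on day 56 and 381.8 on day 40, and Irf7 at 89.2 and 199.3. Oasl2 followed Ifit3 in donor-derived cells, with ratios of 0.490 (0.437 to 0.548) in Scgb1a1-high and 0.496 (0.436 to 0.564) in Krt5-high cells. Rsad2 and Irf7 had ratios of 0.297 (0.181 to 0.469) and 0.343 (0.282 to 0.414) in donor-derived Scgb1a1-high cells, while endogenous Irf7 stood at 1.02 (0.821 to 1.28) there. Usp18 had a ratio of 0.426 (0.322 to 0.561) in donor-derived and 0.382 (0.221 to 0.633) in endogenous Krt5-high cells, so that its lower level on day 56 was seen in both populations.

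Isg15 had ratios of 0.538 (0.501 to 0.577) in Scgb1a1-high, 0.694 (0.637 to 0.757) in Krt5-high and 0.692 (0.545 to 0.880) in ciliated-like donor-derived cells. In endogenous cells it stood at 1.01 (0.868 to 1.18) in Scgb1a1-high, 1.15 (0.908 to 1.46) in Krt5-high and 1.01 (0.791 to 1.28) in ciliated-like cells. Its lower level on day 56 was thus measured in the pooled donor-derived cells of all 3 groups and in none of the endogenous ones. Within single donor-derived clusters the direction varied, in unscaled CPM on day 56 and day 40. Isg15 was lower on day 56 in clusters 3 (302.1 and 358.3), 14 (113.4 and 160) and 13 (61.37 and 63.88). It was higher in clusters 0 (44.93 and 24.75), 5 (171.1 and 60.57), 7 (238.7 and 222.3) and 4 (97.95 and 86.44). The part of the cluster shares in the pooled ratios was not tested. Ifit1 had a ratio of 0.770 (0.721 to 0.822) in donor-derived Scgb1a1-high cells and of 1.55 (1.36 to 1.76) in endogenous ones. In endogenous ciliated-like cells it was 1.48 (1.27 to 1.72), and in donor-derived ciliated-like cells 0.962 (0.797 to 1.17). Mx1 stood near 1 in Krt5-high cells, at 0.967 (0.737 to 1.27) in donor-derived and 0.932 (0.426 to 1.97) in endogenous cells. Usp18 in donor-derived ciliated-like cells was the one ratio above 1 in donor-derived cells, at 1.42 (1.13 to 1.80). Mx1 in endogenous ciliated-like cells was at least 2-fold higher on day 56 by its ratio of 2.29, but it rested on 17 and 7 UMIs and its interval, 0.904 to 6.54, holds 1.

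The median ratio of those of the 9 genes that were measured in donor-derived cells was 0.490 in Scgb1a1-high, 0.595 in Krt5-high and 0.878 in ciliated-like cells, against 0.991, 0.985 and 1.01 over all features. In endogenous cells it was 0.934, 0.706 and 1.04 in the same order, against 0.997, 0.991 and 1.002. With unscaled CPM 7 of the 9 genes were at least 2-fold lower on day 56 in donor-derived Scgb1a1-high cells. The share over all features was not counted without scaling. Leaving out the TMM factors (1.113 on day 56 and 1.301 on day 40) lowers the ratio of every gene there alike.

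The make-up of the donor-derived cell groups also differed between the days. Cluster 3, the Scgb1a1-high cluster with the most of these transcripts, had 17.9% of donor-derived Scgb1a1-high cells on day 56 (84 cells) and 74.7% on day 40 (488 cells). Within cluster 3 the 9 genes summed to 1131 unscaled CPM on day 56 and 1402 on day 40, and within cluster 4 to 387 and 400. Clusters 3 and 7 had interferon-induced genes among their own leading genes (Ido1, Ifit1bl1 and Ifit3 in cluster 3, Cxcl10, Gbp2b and Gbp5 in cluster 7), and 7 of the 9 genes were among the 2000 genes used for clustering. Among the Krt5-high clusters the sum was 505 on day 56 and 227 on day 40 in cluster 5, 672 and 783 in cluster 7, 133 and 124 in cluster 0, and 152 and 143 in cluster 13. Only in cluster 5 did day 56 exceed day 40 beyond the counting interval. In the ciliated-like cluster 14 the sum was 1022 on day 56 and 1505 on day 40.

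**Figure D4:**
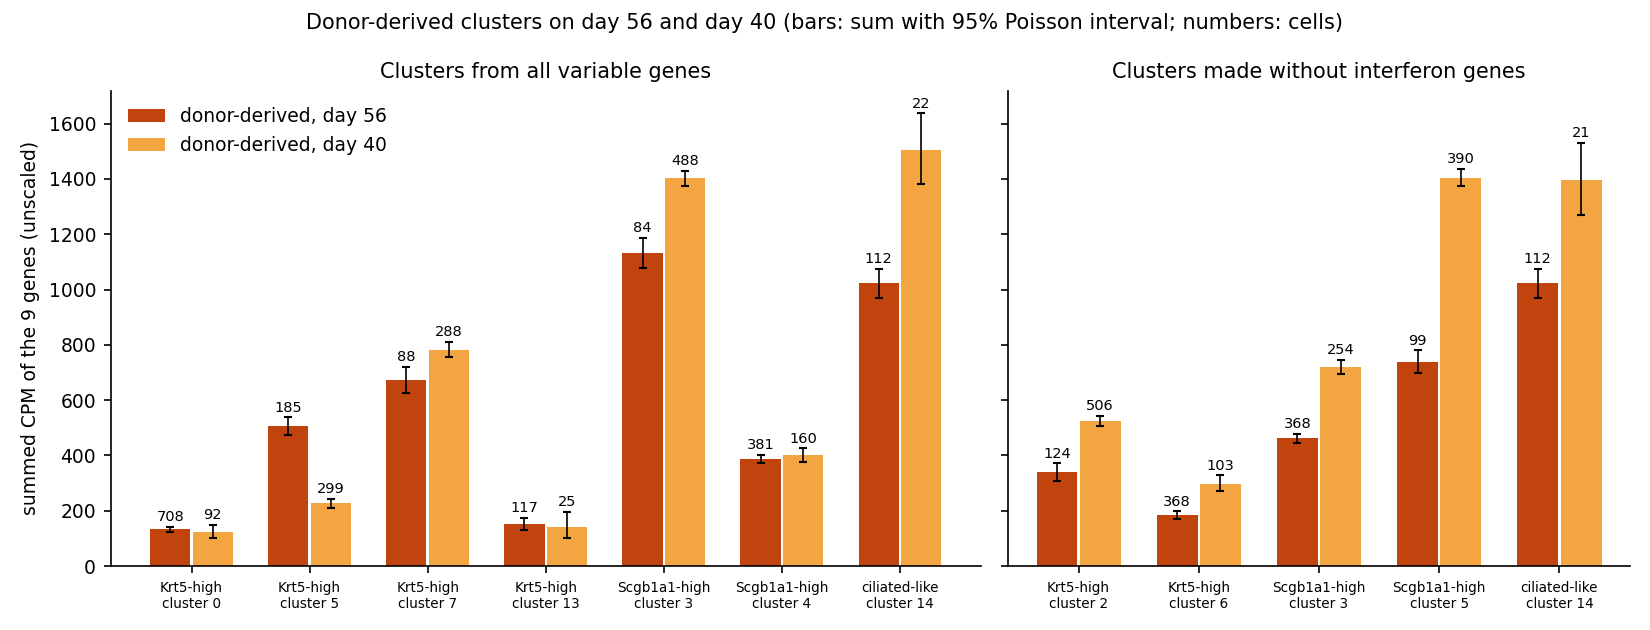
Summed unscaled CPM of the 9 genes within single clusters, for donor-derived day 56 and day 40 cells (1 library per day, bars with an exact 95% Poisson interval, the number above each bar is its cells), for clusters made with all variable genes and for clusters made without interferon genes. With all genes cluster 5 is higher on day 56 (505 against 227) and clusters 3, 7 and 14 are lower, and without interferon genes all 5 clusters shown are lower on day 56.

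When the cells were clustered again without 80 interferon genes, an alternative chosen after seeing the data, 5 clusters of the 3 cell groups held at least 20 donor-derived cells on both days. Their sums were 339 unscaled CPM on day 56 and 525 on day 40 in cluster 2 and 185 and 298 in cluster 6 (both Krt5-high), 461 and 719 in cluster 3 and 739 and 1405 in cluster 5 (both Scgb1a1-high), and 1022 and 1396 in cluster 14 (ciliated-like). All 5 were lower on day 56, with intervals that did not meet. A further cluster, at 938 CPM of Krt5 and so outside the Krt5-high group, had 290 on day 56 (604 cells) and 276 on day 40 (97 cells), with intervals that met. When the groups held only clusters named basal-like or secretory-like, which drops the unnamed clusters 0 and 13 and the hillock-like cluster 3, just 1 gene was 2-fold lower on day 56 in donor-derived Scgb1a1-high cells, Irf7 with a ratio of 0.300. In Krt5-high cells 1 gene was 2-fold apart, Irf7 at 2.20 and so higher on day 56, and the ratio of Isg15 was 1.33 there and 1.17 in Scgb1a1-high cells. How much of the difference between the days comes from which cells each library holds was not tested.

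The third comparison set endogenous cells of the injured and transplanted recipients against the control trachea, again as ratios with no test, since there is 1 control. A gene was counted where both recipients were at least 2-fold apart from the control. In Scgb1a1-high cells 6 of 8 genes were higher in both recipients (2.94% of all features), in Krt5-high cells 4 of 8 (4.51%) and in ciliated-like cells 3 of 9 (2.94%), and 0 were lower in any of them. Ifit3 in Scgb1a1-high cells was 15.6-fold higher on day 56 (5.12 to 77.6) and 29.3-fold on day 40 (9.81 to 143.9), on 3 UMIs in the control. In ciliated-like cells, where the control held 23 UMIs, it was 3.95-fold (2.55 to 6.40) and 4.02-fold (2.59 to 6.52) higher. In Krt5-high cells the control held 0 UMIs of Ifit3, and against a floor of 3 UMIs Ifit3 was at least 1.64-fold higher on day 56 and at least 5.26-fold on day 40.

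Isg15 in endogenous cells was 7.14-fold (2.98 to 22.4) and 6.20-fold (2.60 to 19.3) higher than the control in Krt5-high cells, 4.42-fold (3.29 to 6.05) and 4.36-fold (3.25 to 5.96) in Scgb1a1-high cells, and 1.16-fold (0.862 to 1.59 and 0.853 to 1.58) on both days in ciliated-like cells. Its distance from the control was thus measured in the first 2 cell groups and not in ciliated-like cells, whose control level of 39.5 CPM was the highest of the 3. Irf7 was higher in both recipients in all 3 cell groups, by 4.64-fold (3.04 to 7.38) and 4.54-fold (2.97 to 7.21) in Scgb1a1-high, 2.66-fold (1.77 to 4.14) and 3.38-fold (2.26 to 5.24) in ciliated-like, and 7.63-fold (1.26 to 312) and 9.70-fold (1.66 to 390) in Krt5-high cells, the last on 1 UMI in the control. Oasl2 was 4.23-fold and 3.52-fold higher in Scgb1a1-high and 3.82-fold and 4.80-fold in Krt5-high cells, and Ifit1 3.14-fold and 5.02-fold in Krt5-high cells. In Scgb1a1-high cells Usp18, on 11 control UMIs, had ratios of 2.03 (0.999 to 4.47) and 2.38 (1.20 to 5.15), and Ifit3b, on 6, of 2.45 (0.955 to 7.41) and 3.80 (1.58 to 11.1), so that the day 56 interval of both holds 1. Ifit3b in ciliated-like cells, on 5 control UMIs, completes the count with 5.96 (2.41 to 19.04) and 3.27 (1.25 to 10.8). Mx1 was 2-fold higher than the control in both recipients in none of the cell groups, with ratios of 0.423 to 2.01. The control is 1 animal, so the spread between uninjured animals is unknown, and its cells were not gated on GFP.

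Single cells were read at equal depth by drawing 5000 UMIs from each cell, since median depths ran from 8234 to 26142 UMIs over the cell groups and libraries. The share of cells with UMIs of at least 3 of the 9 genes was then 19.7% on day 56 and 48.8% on day 40 in donor-derived Scgb1a1-high cells, against 8.82% and 5.76% in endogenous cells and 1.24% in the control. In Krt5-high cells it was 6.51% and 19.7% in donor-derived cells, against 4.35% and 7.10% in endogenous cells and 0 of 66 cells in the control, which allows a share of up to 4.55% by a floor of 3 counts (exact upper limit 5.44%). In ciliated-like cells it was 41.4% and 53.7% in donor-derived cells, against 15.3% and 19.3% in endogenous cells and 9.09% in the control. Barcodes with UMIs of at least 3 of the genes thus made up a larger share of donor-derived than of endogenous cells of the same day in all 3 groups, though on day 56 in Krt5-high cells the exact intervals met (5.10% to 8.17% in donor-derived and 2.10% to 7.85% in endogenous cells). In T and NK-like cells of the endogenous libraries, in which little of these transcripts was counted, the share was 1 of 75 cells (1.33%) on day 56 and 0 of 19 cells on day 40, which allows a share of up to 15.8% by the same floor (exact upper limit 17.65%). Donor-derived and control libraries held 0 T and NK-like cells, so the share that free RNA gives there was not tested. The median depths of these cells were 5410 and 5588 UMIs. Before thinning, the shares were 48.8% and 78.4% in donor-derived, 39.7% and 32.4% in endogenous and 5.79% in control Scgb1a1-high cells, and 67.5% and 97.6%, 54.1% and 53.7%, and 25.3% in ciliated-like cells. In Krt5-high cells they were 15.4% and 37.6%, 10.7% and 14.7%, and 1.52%. Thinning left out 0 to 41 cells per library in these 3 groups, and 48 and 17 T and NK-like cells.

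**Figure D5:**
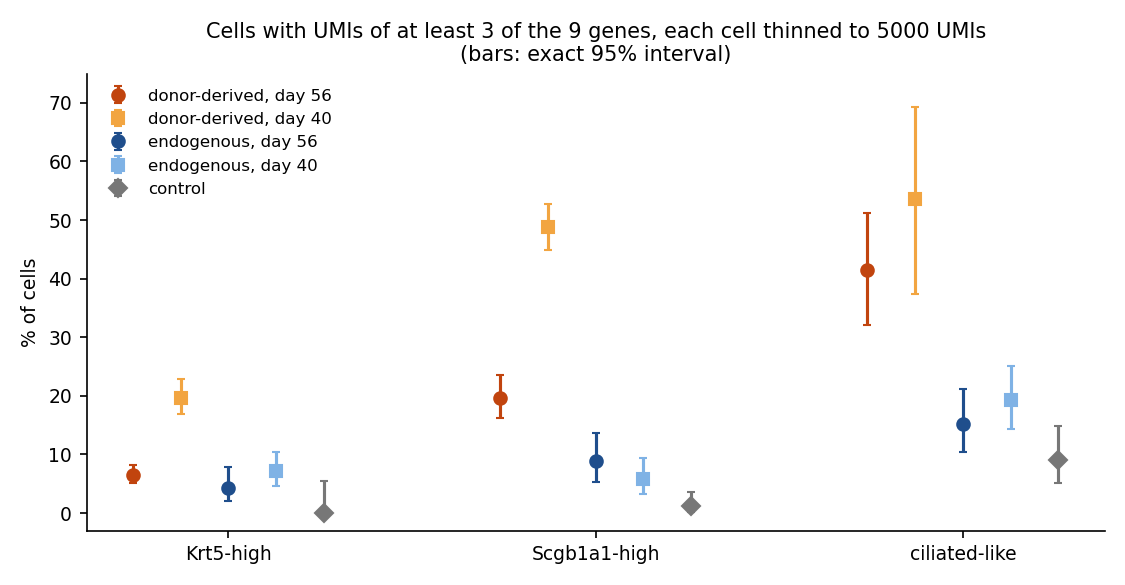
Share of cells with UMIs of at least 3 of the 9 genes after each cell was thinned to 5000 UMIs, by cell group and library (bars are exact 95% binomial intervals, counting error only). The donor-derived day 40 point is the highest of each cell group, at 19.7%, 48.8% and 53.7%, and the control point is the lowest.

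Across the cell groups of the endogenous libraries the genes differed in where they were highest. Over 11 cell groups with at least 20 cells on both days, ciliated-like cells ranked first in mean unscaled CPM for Ifit1, Ifit3, Ifit3b, Oasl2 and Usp18. For Ifit1 they held 138.3 and 93.8 CPM on day 56 and day 40, and Scgb1a1-high cells, next in order, 115.9 and 76.0 CPM, so that these neighbours overlapped. For Ifit3 they held 53.5 and 54.4 CPM, above the 41.9 and 8.64 CPM of macrophage-like cells, and for Oasl2 74.6 and 105 CPM, above the 57.6 and 38.4 CPM of tuft-like cells. For Ifit3b ciliated-like cells held 17.5 and 9.61 CPM and hillock-like cells, next in order, 0 and 12.25 CPM, which overlapped. Irf7 and Mx1 ranked first in dendritic-like cells. Irf7 was at 81.7 and 121.2 CPM there, against 73.6 and 101.1 CPM in plasmacytoid dendritic-like cells, the professional producers of type I interferon, and these overlapped. Mx1 was at 33.1 and 11.8 CPM (30 and 4 UMIs) there, against 16.4 and 15.7 CPM in the unnamed cluster 8, and these overlapped too. Isg15 ranked first in macrophage-like cells, at 147.3 and 64.8 CPM, and overlapped hillock-like cells, at 97.2 and 110.2 CPM. Rsad2 ranked first in tuft-like cells, at 23.0 and 21.4 CPM, and in the other groups it averaged 8.06 CPM or less. The tuft-like level rests on few counts, with 4 and 5 UMIs in the 20 and 33 cells of cluster 20, which held most of these cells. For Usp18 ciliated-like cells held 79.7 and 76.5 CPM, above the 27.6 and 32.2 CPM of hillock-like cells. T and NK-like cells held 0 UMIs of Ifit3b, Oasl2, Mx1 and Rsad2 on both days.

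Summed in unscaled CPM, the 9 genes reached in donor-derived cells 1007 on day 56 and 1107 on day 40 in ciliated-like, 517 and 1151 in Scgb1a1-high and 256 and 459 in Krt5-high cells. In endogenous cells they reached 461 and 444 in ciliated-like, 273 and 246 in Scgb1a1-high and 151 and 213 in Krt5-high cells, and in the control 274, 77.2 and 50.1. Endogenous macrophage-like cells had 349.6 and 229, hillock-like cells 237.5 and 364, tuft-like cells 317 and 218, plasmacytoid dendritic-like cells 90.3 and 169.9, B lineage-like cells 31.2 and 94.8 and T and NK-like cells 32.0 and 36.8. A donor-derived cluster left unnamed and led by Ccl9, a chemokine gene, and Spib, which encodes a factor of the ETS family, had 526 on day 56 (27 cells) and 873 on day 40 (217 cells), and Oasl2 held the most of it, at 224.7 and 275.9 CPM. Markers of leukocytes were read in the sums of the 3 epithelial groups. The 8 macrophage markers summed to 1.37 to 6.12 CPM in donor-derived, 2.76 to 19.0 CPM in endogenous and 2.44 to 9.24 CPM in control groups, with 3 to 7, 2 to 5 and 4 to 7 of them at 0. The 10 T and NK markers summed to 0 to 1.22, 0.575 to 9.36 and 0 to 4.84 CPM, with 6 to 10, 3 to 8 and 9 to 10 at 0, in the same order of groups. The 5 plasmacytoid dendritic markers, which include the interferon-inducible Bst2, summed to 117 to 310 CPM in donor-derived, 109 to 160 CPM in endogenous and 62.9 to 116 CPM in control groups, with Siglech at 0 in all donor-derived sums. B lineage markers summed to 4.48 to 26.7, 2.68 to 17.2 and 0 to 11.7 CPM and dendritic markers to 2.48 to 9.77, 0.383 to 4.53 and 0.271 to 3.70 CPM, and the highest of these sums was donor-derived for both. The part of such cells in the differences was not tested beyond one alternative. Without the 14 cells that held a Ptprc UMI, the calls for Isg15, Irf7, Mx1, Ifit3, Ifit3b and Usp18 had edgeR adjusted p-values of 0.0011 to 0.0434.

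The rest of the pathway was read from lists of its parts. No UMI of Ifnb1, Ifna2, Ifna4, Ifne or Ifnl3 was counted in the kept cells of any library, and Ifnk and Ifnl2 had 0 to 2 UMIs per library. Of the interferon alpha genes only Ifna2 and Ifna4 were on the list. Donor-derived libraries held 0 UMIs of Ifng, the gene of interferon gamma, on day 56 and 3 on day 40, against 176 and 18 in endogenous libraries, and the control held 0. Of the endogenous UMIs 175 and 18 lay in T and NK-like cells, of which there were 123 on day 56 and 36 on day 40. Of 6 receptor genes, 1 was called in Scgb1a1-high cells and none in the other cell groups (2 rose and 1 fell in Krt5-high cells in the blocked fit). Over all tested genes 7.03% were called higher and 8.57% lower in Scgb1a1-high cells. The blocked fit called 8.35% higher and 9.16% lower in Krt5-high cells. The receptor gene called in Scgb1a1-high cells was Ifngr1, a chain of the interferon gamma receptor. It was at 41.6 and 65.6 CPM in donor-derived cells, against 26.7 and 24.8 CPM in endogenous cells and 24.96 CPM in the control (1.03 ± 0.23, edgeR adjusted p = 0.0222). Ifnar1 and Ifnar2, the type I receptor, and Ifnlr1, the type III chain, had edgeR adjusted p-values of 0.490 to 0.957 in that cell group.

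Of 29 measured other antiviral genes, 27 were tested in Krt5-high cells, where 4 rose and 3 fell (7 and 4 in the blocked fit), 29 in Scgb1a1-high cells, where 6 rose and 1 fell (10 and 3), and 29 in ciliated-like cells, where 4 rose and 1 fell (4 and 1). Over all genes 4.07% rose and 6.61% fell in Krt5-high (8.35% and 9.16% in the blocked fit), 7.03% and 8.57% in Scgb1a1-high (8.30% and 9.18%), and 1.92% and 1.93% in ciliated-like cells (2.65% and 2.63%). In Krt5-high cells Ifi44, Oas3, Trim30a and Rtp4 rose and Herc6, Epsti1 and Trim25 fell. In Scgb1a1-high cells Ifi44, Oasl1, Oas3, Samd9l, Trim30a and Ifitm3 rose and Trim25 fell. In ciliated-like cells Oasl1, Trim30a, Ifitm3 and Xaf1 rose and Ifi35 fell, at 182.1 and 206.5 CPM in donor-derived cells, against 360.1 and 341.5 CPM in endogenous cells and 400.5 CPM in the control (-0.81 ± 0.17, edgeR adjusted p = 0.0370). Ifitm3, which keeps viruses from leaving endosomes, was at 1279 and 2072 CPM in donor-derived Scgb1a1-high cells, against 762 and 684 CPM in endogenous cells and 379 CPM in the control (1.18 ± 0.26, edgeR adjusted p = 0.0136). The median log2 fold change of the list was 0.54 in Krt5-high, 0.74 in Scgb1a1-high and 0.57 in ciliated-like cells, that of the tested genes among the 9 was 0.98, 1.42 and 0.98, and over all genes it was 0.0052, -0.0029 and 0.0052. Between the days 7 of 26, 10 of 29 and 4 of 26 genes of the list were at least 2-fold lower on day 56 in donor-derived Krt5-high, Scgb1a1-high and ciliated-like cells, and 1 of 24, 1 of 28 and 0 of 28 in endogenous cells. Over all features with at least 20 UMIs these shares were 4.75%, 4.73% and 5.56% in donor-derived and 2.24%, 2.01% and 1.30% in endogenous cells.

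Genes led by interferon gamma, which include antigen presentation genes and guanylate-binding proteins, rose in 2 of 14 in Krt5-high, 2 of 14 in Scgb1a1-high and 4 of 13 in ciliated-like cells (8, 3 and 8 in the blocked fit), beside 4.07%, 7.03% and 1.92% of all genes (8.35%, 8.30% and 2.65% in the blocked fit), and none of the list fell. Cxcl10, a chemokine for T cells, was at 119.4 and 105.6 CPM in donor-derived ciliated-like cells, against 0.951 and 0.672 CPM in endogenous cells and 0 UMIs in the control (edgeR adjusted p = 1.33e-05). Iigp1, an interferon-induced GTPase, was at 467 and 607 CPM in donor-derived cells there, against 134.7 and 179 CPM in endogenous cells and 7.41 CPM in the control (1.82 ± 0.22, adjusted p = 0.00353). Between the days 13 of 14 genes of this list were at least 2-fold lower on day 56 in donor-derived Scgb1a1-high cells, 7 of 14 in Krt5-high and 8 of 14 in ciliated-like cells, against 0 of 13, 1 of 13 and 0 of 12 in endogenous cells. The shares over all features were, in the same order, 4.73%, 4.75% and 5.56% in donor-derived and 2.01%, 2.24% and 1.30% in endogenous cells. Of 9 genes of signal transduction 1 rose, Irf1 in ciliated-like cells, at 84.6 and 113.8 CPM in donor-derived cells, against 31.4 and 48.4 CPM in endogenous cells and 17.9 CPM in the control (1.34 ± 0.25, edgeR adjusted p = 0.0252). Of the sensors and adaptors 1 of 9 rose in Krt5-high, 2 of 8 in Scgb1a1-high (Ddx58 and Tlr3) and 0 of 8 in ciliated-like cells, and none fell. In the blocked fit 1, 2 and 0 rose in the same order, and 1 fell in Krt5-high cells. Ddx58, which encodes RIG-I, rose in Krt5-high (0.85 ± 0.19, adjusted p = 0.0297) and Scgb1a1-high cells (1.10 ± 0.22, adjusted p = 0.0128).

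Over 37 sums of library and cell group the genes whose log2 level ran most like the mean of the 9 were Plet1, Mapk3, S100a1, Sdcbp and Rtp4, with Pearson correlations of 0.816, 0.793, 0.785, 0.773 and 0.772 among 6292 genes. These correlations are a description, since the sums share libraries and depth. Of the 5, Rtp4 is on the list of other antiviral genes.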

How the data were processed

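The deposited values are UMI counts per gene and cell barcode on a combined human and mouse reference, 1 matrix for each of the 5 libraries. Builds GRCm38 and GRCh38 and the tools STARsolo, Cell Ranger and Seurat are listed in the submitters' processing notes, and which of these tools made the matrices the authors deposited is not stated in what was used here. Of the counts, mouse features alone were analysed.

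Barcodes with over 10% human UMIs were left out, as were 38 cells with fewer than 500 genes or a mitochondrial share above 20%. Scrublet marked 48 further cells (0.727%) as doublets, which were also removed. Cells were clustered with scanpy 1.11.5 (2000 variable genes, 30 components, 15 neighbours, Leiden resolution 1). The Krt5 and Scgb1a1 rules that define the cell groups were set after seeing the data, in place of stricter marker names. The 9 genes and the gene lists were chosen with earlier results of these data known. Beside the 9 genes, the rule for naming took up to 4 called genes per list and cell group with the largest changes and a mean of at least 20 CPM, the ligands and receptors, and the 5 genes most alike in profile on log2(CPM + 2); the report gives some of these.

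Summed counts were tested with edgeR 4.0.16 (TMM, filterByExpr, quasi-likelihood F-test, Benjamini-Hochberg adjustment over all tested genes, threshold 0.05), which was tested on simulated data. All adjusted p-values in the report are from edgeR unless DESeq2 1.42.0 is named. The SE is the absolute log2 fold change divided by the square root of F. Comparisons without replicates used a ratio of at least 2 among features with at least 20 UMIs, and intervals (95%, exact) and the floor of 3 counts cover counting error only. Per the series' design text both sorts of a day were made from 1 animal, so the libraries are paired; their deviations from the group means correlated at 0.358, 0.112 and -0.0201 in Krt5-high, Scgb1a1-high and ciliated-like cells. Promoters and transcripts were read from RefSeq and GENCODE tables of GRCm38. The alternatives were other scalings, tests, filters, clusterings and thinning depths, the recipient as a block, and leaving out each library or the cells with Ptprc.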

Additional observations from a re-analysis of the deposited data

Results flagged for a closer look

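The donor-derived over endogenous effect on Ifit3b differed between cell groups in a test of that difference. It was greater by 1.52 on the log2 scale in Scgb1a1-high cells than in Krt5-high cells (edgeR's quasi-likelihood test of the interaction, adjusted p = 0.0430), and both donor-derived libraries lay above both endogenous ones in Scgb1a1-high cells and not in Krt5-high cells. How reads were shared out between Ifit3 and Ifit3b is uncertain, and for Ifit3 the difference was 0.41 (adjusted p = 0.375). The call for Ifit3b was lost in DESeq2 (adjusted p = 0.748), at clustering resolution 2 (0.595) and with clusters named basal-like and secretory-like alone (0.47, adjusted p = 0.658), and the difference was -0.11 when the day 40 library of endogenous cells was left out.

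Ifit1 in Scgb1a1-high cells moved in opposite directions between the days in cells of the same 2 animals. Its day 56 over day 40 ratio was 0.770 in donor-derived cells and 1.55 in endogenous cells, each with an interval that leaves out 1. Within the 2 clusters that held most of the donor-derived cells Ifit1 was at 145.1 unscaled CPM on day 56 and 128.2 on day 40 in cluster 4 and at 304.8 and 309.2 in cluster 3. With 1 recipient per day this difference was not tested.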

How the results depend on the processing

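With the recipient as a replicate block, edgeR called 2009 genes in Krt5-high cells in place of 1226, and 6, 4 and 6 of the 9 genes in Krt5-high, Scgb1a1-high and ciliated-like cells in place of 2, 1 and 4; the values of the genes concerned stand in the report. Without a filter on low counts 2469, 2681 and 791 genes were called in Krt5-high, Scgb1a1-high and ciliated-like cells (1226, 1715 and 405 with it). They included 6 and 5 of the 9 genes in Krt5-high and Scgb1a1-high cells. In the interaction 1087 genes were then called, with 2 of the 9. DESeq2 called 5 of the 9 genes in Scgb1a1-high cells, and in the interaction 244 genes (756 in edgeR) and 0 of the 9. At clustering resolution 0.5, 1 of the 9 was among the 1173 genes called in Krt5-high cells, and 3 were among the 800 called in the interaction. At resolution 2, 614 genes were called in ciliated-like cells, and 929 in the interaction with 0 of the 9. There 0 of the 9 were 2-fold apart between the days in endogenous ciliated-like cells, as with at least 50 UMIs (0, against 1). Clustering without interferon genes gave 1899 called genes with 3 of the 9 in Scgb1a1-high cells, and 687 with 2 of the 9 in the interaction. Groups of clusters named basal-like or secretory-like alone gave 2201 genes and 4 of the 9 in Krt5-high cells. They gave 1759 genes and 5 of the 9 in Scgb1a1-high cells, and 1151 genes and 2 of the 9 in the interaction. They left 1 gene 2-fold apart between the days in donor-derived Krt5-high and 1 in Scgb1a1-high cells (4 and 5 in the report). They turned Usp18 to -0.13 in Scgb1a1-high cells, and in the interaction Ifit1 to -0.57, Ifit3 to -0.96, Isg15 to -1.23, Oasl2 to -0.96, Mx1 to -0.060, Usp18 to -0.0026 and Irf7 to -0.45. The cause of these changes was not tested.

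Leaving out 1 library, which leaves 1 group with a single library assumed to vary like the other, gave 327 to 1931 genes and 0 to 3 of the 9 in Krt5-high cells, 601 to 3032 and 0 to 6 in Scgb1a1-high cells, 50 to 2110 and 1 to 6 in ciliated-like cells, and 237 to 1228 and 0 to 2 in the interaction. The lowest counts came without an endogenous library. On the log2 scale it moved Usp18 over -1.09 to 0.55 in Krt5-high and -0.021 to 0.79 in Scgb1a1-high cells, Irf7 over -1.29 to 0.26 in Scgb1a1-high cells and Mx1 over -0.56 to 2.00 in ciliated-like cells. In the interaction Ifit1 ran over -0.29 to 1.01, Ifit3 over -0.13 to 0.64, Ifit3b over -0.11 to 1.99, Isg15 over -0.077 to 0.29 and Rsad2 over -4.13 to 4.22. Of the calls among the 9 genes made at the main settings, without the block, only that of Ifit3b in the interaction changed sign in any alternative run.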
